A study of Mus musculus with 12 samples.

Results

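The Cav2, Cav1 and Met locus was described here by the STAT5-bound regions listed in the 1 Mb window from 17000001 to 18000000 on mouse chromosome 6 (build mm9). A region belonged to the window when its centre lay in it, and 235 of the 156642 regions in the 3 lists did. In growth hormone-stimulated fibroblasts that overexpressed STAT5A, the window held 129 of 71561 regions in replicate 1 and 95 of 71803 regions in replicate 2, against 11 of 13278 regions in stimulated wild-type fibroblasts. The window was chosen by its number of listed regions in these same lists, so these numbers are a description and were not tested. That it holds the 3 genes is part of how it was chosen, and no gene was placed among the regions, because the gene table used is of another build (GRCm38.p6).

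The regions come from chromatin immunoprecipitation and sequencing (ChIP-seq) with an antibody to STAT5 in mouse embryonic fibroblasts, connective tissue cells grown out of fetuses of day 12.5 to 13.5 on a C57BL/6 background and used at passage 9 to 10. The overexpressing cells lack endogenous Stat5 (Stat5-/-) and carry added STAT5A (2 lists from 2 libraries, the second titled a repeat), and the wild-type cells have their own Stat5 (1 list from 1 library). Both spent 5 h without serum before they received growth hormone for 45 min, at 1 µg/ml. What drives STAT5A in the overexpressing cells, and whether the replicates came from separate cultures, are points that the sources used here do not give. Regions of the other 9 of 12 libraries, those of Stat5-null and unstimulated cells among them, were not used, so no background in cells without STAT5 stands beside the numbers below. The lists hold positions only. The cell type could therefore not be checked against marker genes, the depth of each library is unknown, and no region has a height or a score.

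JAK kinases phosphorylate the transcription factors STAT5A and STAT5B after cytokine or growth hormone signalling, whereupon these form dimers and bind DNA in the nucleus. Cav1 encodes caveolin-1, the main coat protein of caveolae, the small flask-shaped pits of the plasma membrane that are abundant in fibroblasts. Cav2 encodes caveolin-2, which assembles with caveolin-1. Met encodes the receptor tyrosine kinase for hepatocyte growth factor, a ligand that mesenchymal cells such as fibroblasts release and that acts largely on epithelial cells. In the gene table Cav2 is followed by Cav1 and, after 2 noncoding genes (Gm46953 and Gm25021), by Met. To the left of Cav2 the next 4 genes are the noncoding Gm52892, D830026I12Rik and Gm4876 and then Tes, which encodes the focal adhesion protein testin. To the right of Met they are the noncoding Gm52893, Capza2, which encodes a subunit of the actin capping protein, St7 and the pseudogene Gm13898.

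The promoters of the 3 genes are shown because they mark where transcription of the locus starts. Each runs from 250 bases before to 50 bases after a gene start and is from RefSeq (build GRCm38.p6, plus strand). Capitals mark the AP-1 letters TGANTCA, the recognition sequence of the FOS and JUN family.
Cav2, chr6:17280935-17281234: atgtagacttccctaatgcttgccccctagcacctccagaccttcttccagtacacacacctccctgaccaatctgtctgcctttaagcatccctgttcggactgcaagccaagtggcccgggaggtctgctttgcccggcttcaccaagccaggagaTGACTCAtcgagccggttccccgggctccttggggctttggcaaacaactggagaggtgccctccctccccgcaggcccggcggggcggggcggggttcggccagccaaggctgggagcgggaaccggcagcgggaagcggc
Cav1, chr6:17306085-17306384: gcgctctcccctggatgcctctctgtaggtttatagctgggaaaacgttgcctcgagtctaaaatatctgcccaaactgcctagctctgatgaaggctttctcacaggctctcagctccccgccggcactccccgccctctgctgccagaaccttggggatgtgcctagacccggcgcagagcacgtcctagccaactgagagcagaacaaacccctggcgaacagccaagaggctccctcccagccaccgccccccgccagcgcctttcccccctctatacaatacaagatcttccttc
Met, chr6:17463707-17464006: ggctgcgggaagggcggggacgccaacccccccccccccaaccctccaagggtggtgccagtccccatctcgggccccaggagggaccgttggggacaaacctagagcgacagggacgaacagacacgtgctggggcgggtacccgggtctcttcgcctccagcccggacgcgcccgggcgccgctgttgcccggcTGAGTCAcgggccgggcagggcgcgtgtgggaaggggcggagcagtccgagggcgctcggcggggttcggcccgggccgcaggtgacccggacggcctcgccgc
These positions are on another build than the regions and cannot be set against the mm9 positions given below. The letters TTCNNNGAA, the recognition sequence of STAT5 dimers, were searched on both strands and were in none of the 3 sequences, nor in a second Cav1 entry. They were in 8.30% of all 32851 promoters in the table, so most promoters lack them. The AP-1 letters, a search added after the sequences had been read, were in the promoters of Cav2 and Met, once each, in neither Cav1 entry, and in 7.81% of all promoters. Each motif is its own reverse complement, so a match on either strand is a match on both. The matches were TGACTCA in Cav2 and TGAGTCA in Met, and with no STAT5 match there was no overlap between the motifs. Among related genes, 0 of 8 caveola genes with a promoter in the table held the STAT5 letters. Of 11 genes of the MET pathway 1 did, Gab1, which encodes an adaptor of the MET receptor. Counted by gene, 9.55% of all 27025 genes with a promoter held them. The AP-1 letters were in 2 of the 8 caveola genes, Cav2 and Pacsin2, and in 2 of the 11 MET genes, Met and Shc1. They were in 8.97% of all genes, and the Cav2 and Met sequences had been read before that search was added. Whether a region covers any of these promoters, and which letters lie under the regions themselves, was not analysed here.

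Among 2482 windows of 1 Mb on the autosomes, this one held the most regions in overexpression replicate 1 and ranked 7 in replicate 2, where the densest window held 107. In wild type it ranked 194, level with other windows that also held 11 regions. The median window held 26 regions in replicate 1 and 27 in replicate 2, against 4 in wild type. The overexpressing cells thus had 11.7 (replicate 1) and 8.64 (replicate 2) times as many regions here as wild type. The whole lists gave 5.39 and 5.41 times. The window was chosen by its number of regions in these lists, so this difference is a description. Regions covered 52.1 kb of the window in replicate 1 and 46.4 kb in replicate 2, against 4.21 kb in wild type, or 5.21 and 4.64% against 0.421% of its length. With 1 wild-type library there is no replicate check on that side.

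**Figure D1:**
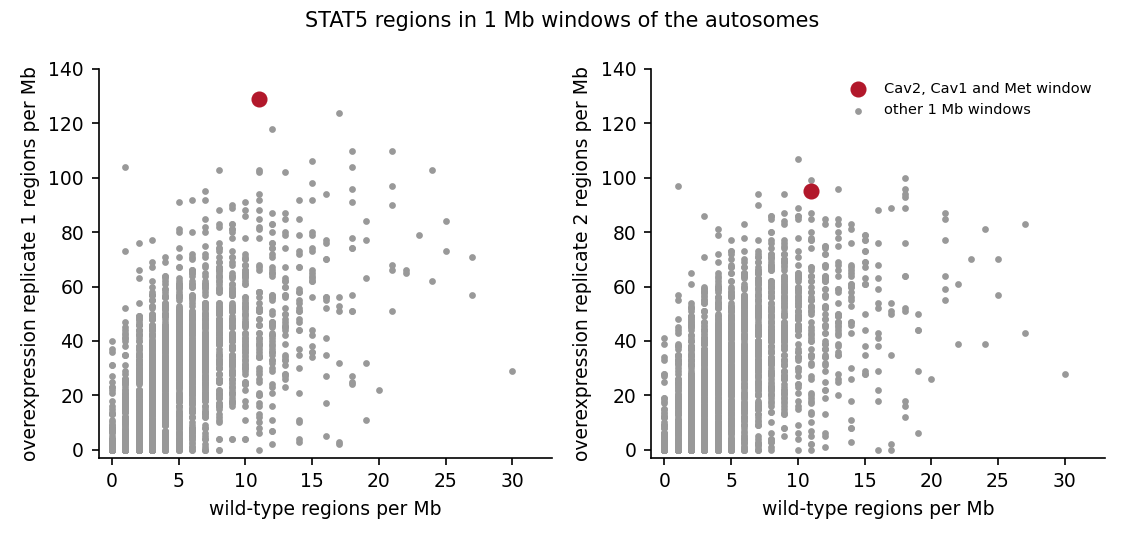
Each point is a 1 Mb window of the autosomes, with the number of regions in wild-type cells (x axis) and in replicate 1 (left) or replicate 2 (right) of the STAT5A-overexpressing cells (y axis). The Cav2, Cav1 and Met window (red) lies at 129 and 95 overexpression regions and 11 wild-type regions.

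Replicate 1 had more regions than replicate 2 (mean 112 ± 24.0, SD, n = 2), and most of this difference lay in how closely its regions abut. In replicate 1, 31 of the 128 gaps between neighbouring regions of the window (24.2%, 95% exact binomial interval 17.1 to 32.6%) were at most 20 bp long, ranging from 2 to 11 bp. Over the whole list 18.0% of gaps were that short. Replicate 2 had 0 such gaps of 94 (interval up to 3.85%), against 0.216% over its whole list, and wild type had 1 of 10 in the window, against 1.83%. When regions at most 20 bp apart were joined, a step chosen after seeing the data, replicate 1 gave 98 stretches and replicate 2 gave 95 (mean 96.5 ± 2.12, SD, n = 2), against 10 in wild type. Of the 98 stretches in replicate 1, 20 consisted of 2 listed regions, 4 of 3 and 1 of 4. The stretch of 4 lay at 17853443 to 17854530 and was not overlapped in replicate 2. The window still ranked first of 2482 in replicate 1 and 7 in replicate 2 after joining. The joined numbers were 9.80 and 9.50 times that of wild type. The lists also differ in form, since the edges of all 129 replicate 1 regions lie on a 10 bp grid, allowing 1 bp at the end, and those of 2 of the 95 replicate 2 regions do. The part of this difference in the number of abutting regions was not tested.

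Regions were unevenly spread along the window. In bins of 50 kb the first 500 kb held 91 of the 129 regions in replicate 1 (70.5%) and 67 of the 95 in replicate 2 (70.5%), against 6 of the 11 in wild type (54.5%). After joining, the first 500 kb held 70 stretches and the second 28 in replicate 1, and 67 and 28 in replicate 2, so that the replicates were nearly level in each part. The densest bins of replicate 1 were the first 3, from 17000001 to 17150000, with 14, 13 and 11 regions, and the bin from 17350001 to 17400000, which also held 11. The densest bins of replicate 2 lay elsewhere. They were those from 17150001 to 17200000 with 10 regions, from 17250001 to 17300000 with 9 and from 17450001 to 17500000 with 9.

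The sparsest part was shared. The bin from 17500001 to 17550000 held 1 region in each overexpression replicate and 1 in wild type, and the last bin, from 17950001 to 18000000, had no region in replicate 1 or wild type and 1 in replicate 2. The replicates differed most in the bin from 17350001 to 17400000, with 11 regions in replicate 1 and 3 in replicate 2, and in the first 2 bins, with 14 and 13 in replicate 1 and 7 and 6 in replicate 2. In wild type 10 of the 20 bins were empty, and the bin from 17300001 to 17350000 alone held 2 regions, which abut. Across the 20 bins the numbers of the replicates had a Spearman correlation of 0.67, and 0.73 after joining. The correlations of wild type with replicates 1 and 2 were -0.16 and -0.29, over counts of 0 to 2. Bins of 1 window share their libraries, so these values are descriptions.

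**Figure D2:**
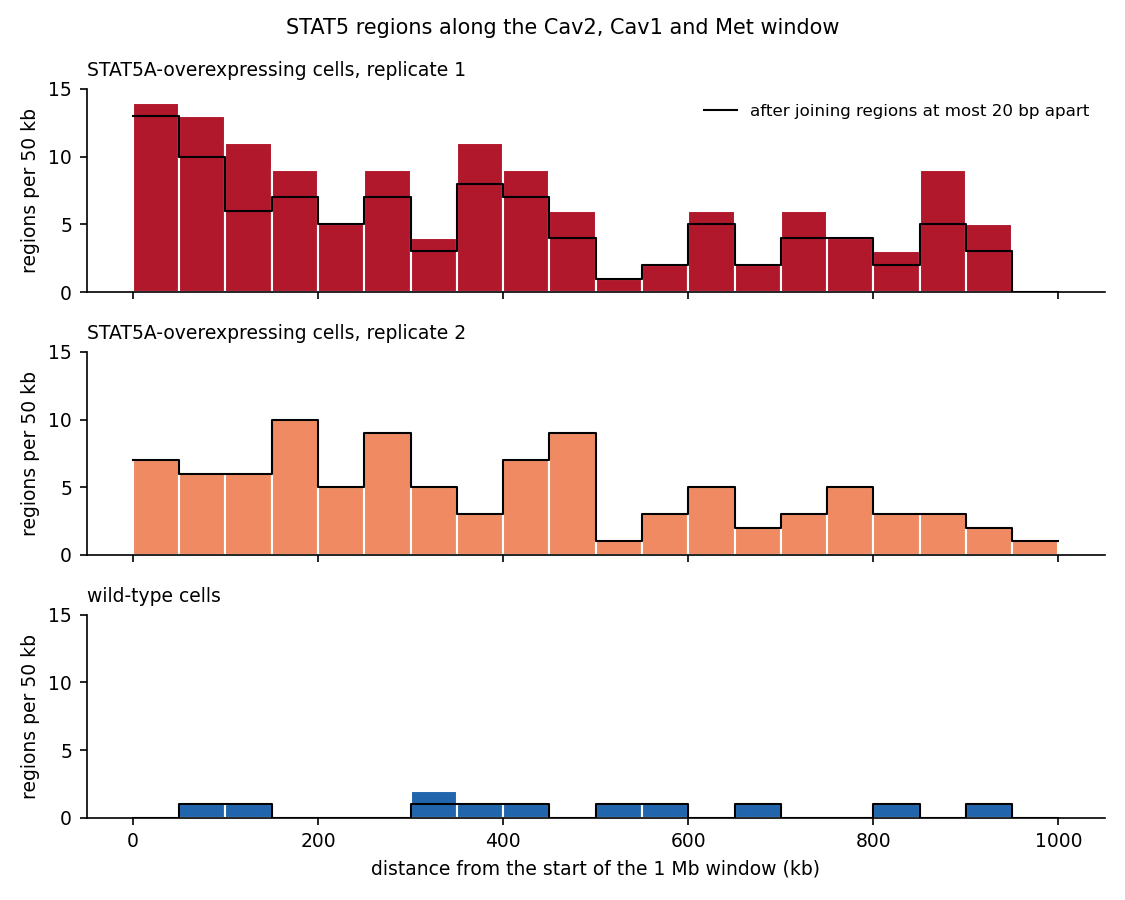
Number of STAT5 regions (y axis) in each 50 kb bin of the window (x axis, distance from its start), for the overexpression replicates and wild type. Coloured bars count regions as listed and the black line counts them after joining regions at most 20 bp apart. The overexpression bins reach 14 and 10 regions and thin out beyond 500 kb, and no wild-type bin holds more than 2.

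The dense stretch began close to the left edge of the window. The 100 kb before the edge held 1 region in replicate 1 and 1 in replicate 2, against 0 in wild type, and the 100 kb after it held 27 and 13, against 1. In replicate 1 the last region before the edge lay at 16905553 to 16905910 and the first inside it at 17000433 to 17001150. In replicate 2 the corresponding regions lay at 16908293 to 16908493 and 17000708 to 17000960. The whole 1 Mb to the left held 4 regions in each overexpression replicate and 3 in wild type. The right side had no such step. The last 100 kb of the window held 5 and 3 regions in the overexpressing cells, against 1 in wild type, and the next 100 kb held 6 and 3, against 1. The 1 Mb to the right held 31 and 15 regions in replicates 1 and 2, against 7 in wild type. The last region inside the window ended at 17929791 in replicate 1 and 17997686 in replicate 2, against 17929550 in wild type. The first beyond it began at 18026313 and 18028016, against 18026443 in wild type.

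How far the overexpression replicates held the same regions was asked next. Regions counted as shared when they had 1 bp or more in common. Of the 129 replicate 1 regions in the window, 78 overlapped a replicate 2 region (60.5%, interval 51.5 to 69.0%), where 51.9% of the whole list did. Of the 95 replicate 2 regions, 58 overlapped a replicate 1 region (61.1%, interval 50.5 to 70.9%), where 43.1% of the whole list did. Since the window was chosen by its density, its shares are set beside those of the whole lists without a test. After joining, the shares were 62.2% and 61.1%, where they were 52.7% and 43.1% over the whole lists. When the common part had to be 50% or more of each region, 33.3% of replicate 1 regions were shared, so some shared regions differ in extent. The share under this rule was not computed over the whole lists.

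The difference in extent had a direction. Of the 58 replicate 2 regions that overlapped replicate 1, 17 covered 2 replicate 1 regions and 2 covered 3 (32.8% together, against 19.6% over the whole list). The reverse, a replicate 1 region over several of replicate 2, occurred once in 78. An example is the replicate 2 region at 17022331 to 17023412, which was 1082 bp wide and overlapped 3 replicate 1 regions. These counts are of regions as listed, where replicate 1 but not replicate 2 had abutting regions in the window. They were not repeated after joining, and the part of abutting regions in them was not tested. In the first 500 kb 64.8% of replicate 1 regions (interval 54.1 to 74.6%) and 62.7% of replicate 2 regions (50.01 to 74.2%) were shared. In the second 500 kb 19 of 38 replicate 1 regions (33.4 to 66.6%) and 57.1% of replicate 2 regions (37.2 to 75.5%) were, and the intervals of the parts overlap in both replicates.

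Shared regions were wider, in the window as in the whole lists. In replicate 1 the median width was 428 bp for the 78 shared regions and 328 bp for the 51 others, against 458 and 348 bp over the whole list. In replicate 2 the medians were 497 bp for the 58 shared regions and 311 bp for the 37 others, against 468 and 329 bp over the whole list. The ranges overlapped widely, from 138 to 1129 bp for shared and 138 to 829 bp for other regions in replicate 1, and from 172 to 1274 bp and 167 to 1077 bp in replicate 2. Over all window regions the median was 388 bp in replicate 1 and 408 bp in replicate 2, against 388 bp in wild type, close to the 398, 378 and 379 bp of the whole lists.

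**Figure D3:**
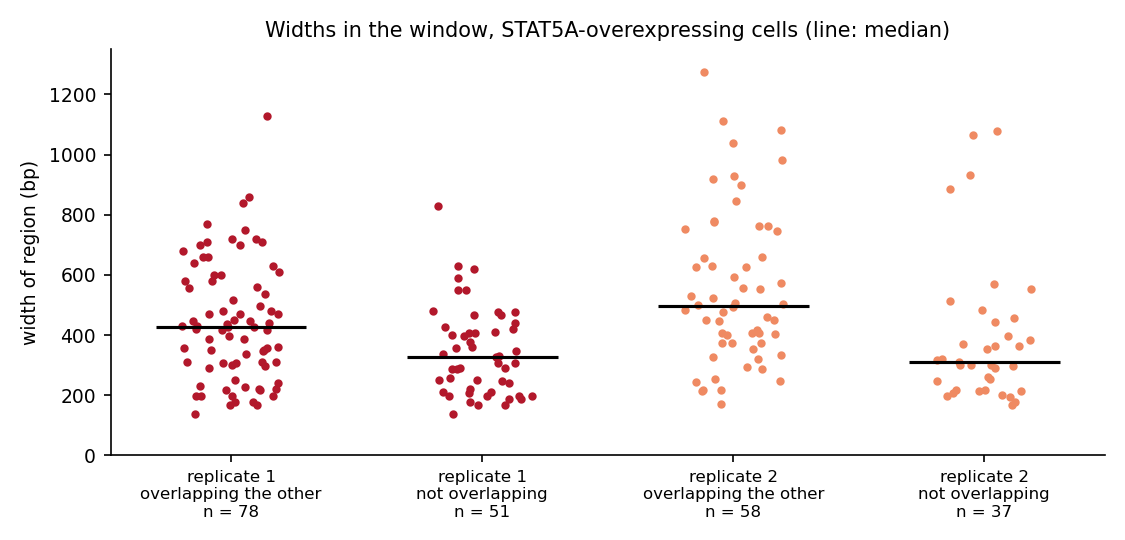
Width of each region of the window (y axis, bp) in the overexpression replicates, divided by overlap of at least 1 bp with the other replicate. Horizontal lines are medians, at 428 and 328 bp in replicate 1 and 497 and 311 bp in replicate 2, and the points of the classes overlap.

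Of the 5 widest regions of replicate 1, 4 were shared with replicate 2, and of the 5 widest of replicate 2, 3 were shared with replicate 1. None of these 10 overlapped a wild-type region, though that of replicate 1 at 17927993 was a piece of a joined stretch that did. Few window regions did, 4.65% of those in replicate 1 and 3.16% of those in replicate 2. The absence therefore does not set the widest regions apart. The widest in replicate 1 lay at 17471593 to 17472721. It was 1129 bp wide, was wider than 99.8% of its whole list, had its summit at 17472105 and shared 959 bp with replicate 2. The others in replicate 1 began at 17927993, 17255783, 17064593 and 17121203 and were 859, 839, 829 and 768 bp wide, and that at 17064593 was not in replicate 2. The widest in replicate 2 lay at 17121277 to 17122550. It was 1274 bp wide, and 1272 bp of it lay under 2 replicate 1 regions. The others began at 17215857, 17022331, 17158597 and 17297767 and were 1111, 1082, 1077 and 1066 bp wide. The regions at 17158597 and 17297767 had no overlap in replicate 1. Among window regions at least as wide as the median of their whole list, 69.8% were shared in replicate 1 and 77.8% in replicate 2. Among narrower window regions 51.5 and 39.0% were. A wider region meets the 1 bp rule more easily, and the part of width in sharing was not tested.

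The regions of all 3 lists were then merged into sites, with regions at most 20 bp apart joined, the step chosen after seeing the data. This gave 135 sites in the window. Of these, 52 (38.5%) were held by both overexpression replicates without wild type, 36 (26.7%) in replicate 1 alone and 37 (27.4%) in replicate 2 alone. A further 3 sites were in all lists, 1 was in replicate 1 and wild type, and 6 were in wild type alone. Merging by an overlap of at least 1 bp, without joining, gave 150 sites. Of those, 54 (36.0%) were in both overexpression replicates without wild type, 49 (32.7%) in replicate 1 alone and 37 (24.7%) in replicate 2 alone. Sites were not formed over the whole lists, so whether these shares are particular to the window is not known. Sites of both overexpression replicates and sites of a single replicate were interleaved over most of the window. The longest runs of neighbouring joined sites held by both overexpression replicates alone were 4 sites long. They lay at 17617793 to 17644688, 17069223 to 17095460 and 17005170 to 17027070. Runs of 4 neighbouring sites held by a single replicate occurred at 17061583 to 17065860 in replicate 1 and at 17156991 to 17162066 in replicate 2. These span 4.28 and 5.08 kb, within which the other replicate had no region.

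**Figure D4:**
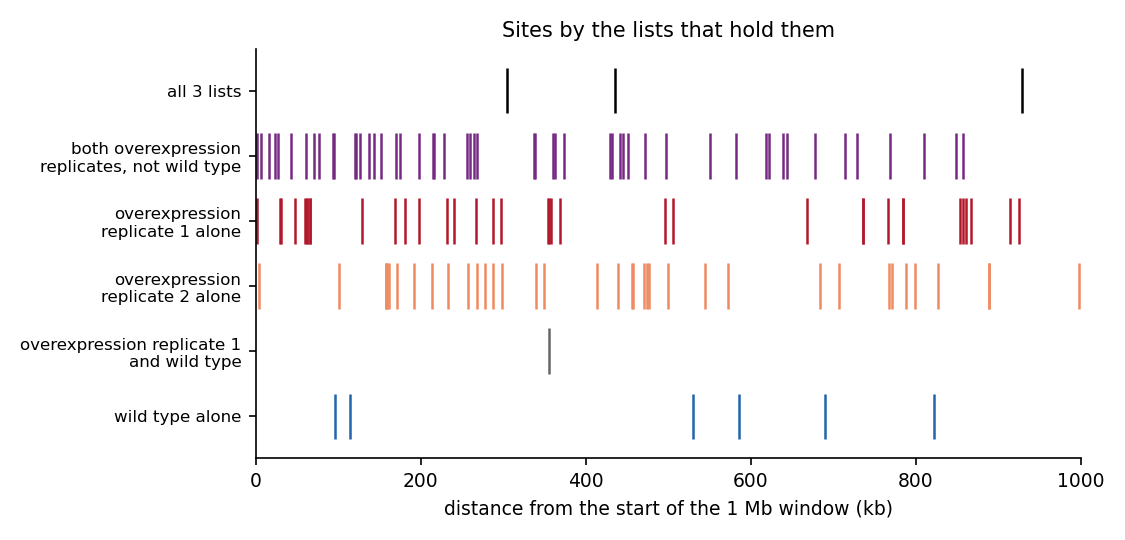
Position of each of the 135 merged sites (x axis, distance from the start of the window), in rows by the lists that hold them. The 52 sites of both overexpression replicates run along the window between single-replicate sites, and the 10 sites with a wild-type region are scattered.

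The 11 wild-type regions of the window were followed one at a time. Of these, 5 were overlapped in replicate 1 and 4 in replicate 2, or 45.5% (interval 16.7 to 76.6%) and 36.4% (10.9 to 69.2%), where 32.3 and 29.9% of the whole wild-type list were. All 4 in replicate 2 were also in replicate 1, so 36.4% were in both replicates, against 23.3% of the whole list, and 45.5% in at least 1, against 38.9%. After joining, 4 of 10 wild-type stretches (40.0%) were in at least 1 replicate, against 38.2% over the whole list. The small number of regions leaves wide intervals, and each holds the share of the whole list. Seen from the overexpressing cells, 6 of the 129 regions in replicate 1 (4.65%, interval 1.73 to 9.85%) and 3 of the 95 in replicate 2 (3.16%, interval 0.656 to 8.95%) overlapped a wild-type region, where 6.55 and 5.25% of the whole lists did.

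The sites of all 3 lists were as follows. At 17303943 to 17304440 wild type had a pair of regions 11 bp apart, 239 and 248 bp wide. Replicate 1 was also cut into a pair there, and replicate 2 had 1 region that covered all of the first wild-type region and 63 bp of the second. The wild-type region at 17435283 to 17435700, 418 bp wide, lay wholly inside a replicate 1 region and shared 387 bp with replicate 2. The wild-type region at 17929033 to 17929550, 518 bp wide, shared 507 bp with a pair of replicate 1 regions and 368 bp with replicate 2. It lay in the longest stretch of replicate 1, 1799 bp in 3 pieces at 17927993 to 17929791. The wild-type region at 17354663 to 17355050 shared 228 bp with replicate 1 and lay 4.71 kb from the nearest region of replicate 2.

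The other 6 wild-type regions overlapped no overexpression region. That at 17095493 to 17095790 lay 32 bp from a replicate 1 region and 162 bp from one of replicate 2. The remaining ones began at 17114243, 17530313, 17585979, 17690093 and 17821813 and lay 5.23, 13.4, 3.81, 5.76 and 4.07 kb from the nearest overexpression region of either replicate. The median distance over the 6 was 4.65 kb. They had a median width of 393 bp, where the 5 shared ones had 388 bp. The region at 17585979 was the only one of the 11 whose edges lie off the 10 bp grid. Over the whole wild-type list 1713 of 13278 regions lie off it.

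Summits, given by the authors for replicate 1 and wild type, lay close together at the 5 shared wild-type regions. At 17435283 the summits of replicate 1 and wild type had the same position, 17435435. The distances at 17303943, 17304193 and 17929033 were 75, 65 and 65 bp, and at 17354663, the site not found in replicate 2, the distance was 185 bp. The median was 65 bp, where it was 75 bp over the 4294 wild-type regions of the whole list that overlapped replicate 1. Measured between centres, the order turned, with a median of 114.5 bp in the window and 90 bp over the whole list. Overlap by itself keeps these distances short. Of the 78 replicate 1 regions shared with replicate 2, 66 had their summit inside the replicate 2 region (84.6%, interval 74.7 to 91.8%), where 90.9% of shared regions in the whole list did. In the other 12 the overlap lay to the side of the summit.

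Regions lay close together in the overexpressing cells. The median gap between neighbouring regions was 2.21 kb in replicate 1 and 5.84 kb in replicate 2, against 87.4 kb in wild type, and after joining it was 4.70 and 5.84 kb, against 94.6 kb. Gaps under 2 kb made up 47.7% of those in replicate 1 (interval 38.8 to 56.7%) and 27.7% of those in replicate 2 (18.9 to 37.8%), against 10.0% in wild type (1 of 10 gaps). Over the whole lists such gaps made up 33.5 and 18.9%, against 5.91% in wild type. After joining, replicate 1 had 30.9% of gaps under 2 kb in the window and 18.8% over the whole list, close to the 27.7 and 18.7% of replicate 2. A window chosen for many regions has short gaps by that choice, so the difference from the whole list is a description.

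Between neighbouring regions of the window the longest gap was 55.3 kb in replicate 1, from 17374331 to 17429582. Stretches up to the window edges were not counted, and that after the last region of replicate 1 was longer, 70.2 kb. In replicate 2 the longest gap was 68.1 kb, from 17929401 to 17997469, against 189 kb in wild type, from 17114741 to 17303942. Inside that wild-type gap the overexpressing cells had 34 and 29 regions. The longest intervals free of regions in all lists were 67.7 kb at 17929792 to 17997469, 39.4 kb at 17374382 to 17413812 and 32.5 kb at 17304441 to 17336983. The last of these begins where the abutting pair shared by all lists ends.

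**Figure D5:**
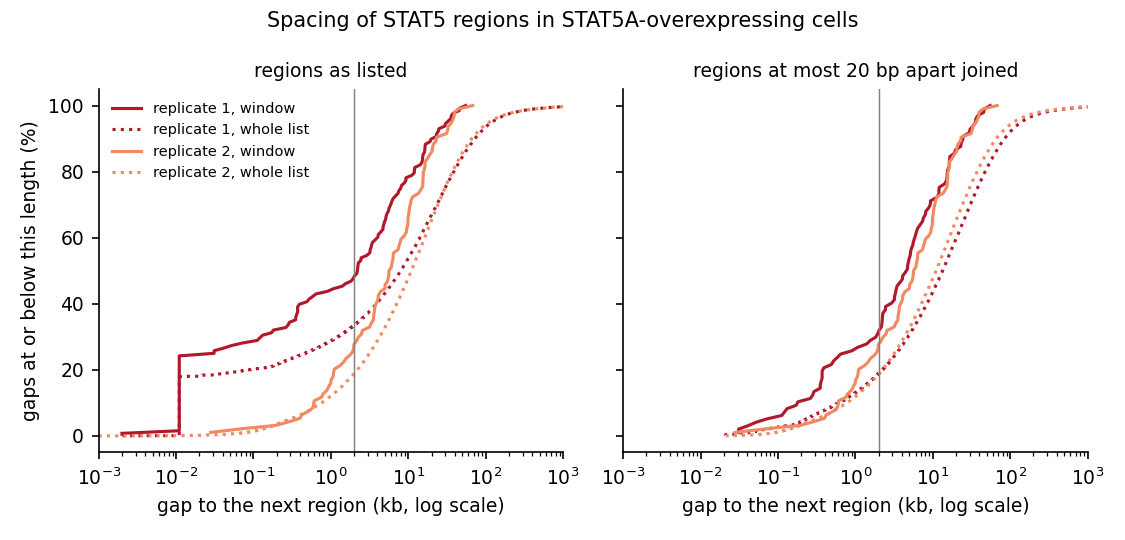
Cumulative share of gaps between neighbouring regions (y axis, %) by length (x axis, kb, log scale, drawn to 1000 kb) for the overexpression replicates, in the window (solid) and over the whole list (dotted), as listed (left) and with regions at most 20 bp apart joined (right). The vertical line is at 2 kb, where the window curves stand at 47.7 and 27.7% as listed and at 30.9 and 27.7% after joining.

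The windows nearest in density by the mean of the overexpression replicates lay on chromosome 2 at 50000001 to 51000000, with 124 and 89 regions against 17 in wild type, and on chromosome 12 at 80000001 to 81000000, with 104 and 97 against 1. Replicate agreement there was of similar size, with 58.1 and 61.5% of replicate 1 regions and 60.7 and 51.5% of replicate 2 regions shared, all within the intervals of the Cav2, Cav1 and Met window. On chromosome 2, 14 of 17 wild-type regions overlapped at least 1 overexpression list (82.4%, interval 56.6 to 96.2%), against 5 of 11 in the Cav2, Cav1 and Met window, and the intervals overlap.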

How the data were processed

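The authors deposited start and end positions of called regions on mm9, with a summit in 2 lists (wild type and replicate 1). No score comes with them. The names of replicate 2 regions begin with MACS, the program that called them, per the file headers and names. No source used here gives the callers of the other lists, the aligner, the controls or the thresholds. The labels give the replicate 2 list with the unstimulated and the stimulated STAT5 library of the repeat, and its name matches the stimulated one. Differences between lists may thus come from calling.

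Positions were read as BED intervals and are printed counted from 1. Intervals of shares are 95% exact (Clopper-Pearson) and cover counting error only. No p-value was computed, since regions of 1 list are not replicates. The 3 genes, the window, gene lists and measures were chosen with earlier results of these data known. Named were all wild-type regions, the 5 widest overexpression regions, the densest 3 bins, the longest 3 gaps, 4 neighbouring genes on each side and 2 gene lists. All 11 names of the MET list and 9 of 13 of the caveola list matched current symbols, the others being older names of listed genes. Overlap counts equalled those of bedtools 2.31.1 in all 6 pairings of lists, and the functions returned planted overlaps on simulated data. Tools were Python 3.11.15 with scipy 1.17.1, numpy 2.4.6, matplotlib 3.10.9 and pandas 2.3.3.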

Additional observations from a re-analysis of the deposited data

How the results depend on the processing

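Of 52 alternative values, 33 stayed within the interval, spread or factor of 1.5 set for each result and 19 moved. Whether a direction reversed was not assessed. Keeping regions at least as wide as their list's median left 63 and 54 regions in overexpression replicates 1 and 2 and 6 in wild type, and the widest regions up to the length of the wild-type list left 23 and 25, both fewer by construction. With the window moved 500 kb to the right the overexpression numbers were 56 and 37. Requiring a common part of 50% of each region, 33.3% of replicate 1 regions and 45.3% of replicate 2 regions were shared between the replicates. With centres within 200 bp 40.3% of replicate 1 regions were, and among the widest regions 39.1 and 32.0% were. The wild-type share in at least 1 overexpression list, 45.5%, was 18.2% against the widest overexpression regions, 50% for the wider regions and for wild-type regions on the grid, and 36.4 to 45.5% without OE replicate 1 or 2. The median summit distance of 65 bp was 114.5 bp between centres. The Spearman correlation of the replicates was 0.81 in bins of 100 kb and 0.56 for the wider regions. Gaps under 5 kb made up 64.8 and 43.6% in replicates 1 and 2, and gaps under 1 kb 15.96% in replicate 2. After joining, an alternative chosen after seeing the data, gaps under 2 kb made up 30.9% in replicate 1 and 0% in wild type. Joining removes the gaps of at most 20 bp, all of them under 2 kb, so both shares fall by construction. For the changes not fixed by construction the cause was not tested. No paired analysis was possible, because the labels do not pair overexpressing with wild-type cells and wild type has only 1 STAT5 library. The unknown depth of the libraries limits what the numbers of regions can show.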
